A study of Caenorhabditis elegans with 45 samples.

Results

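U14A and U16G are 2 point mutants of the let-7 miRNA in Caenorhabditis elegans, and their small RNA was compared with that of wild type (WT). Each of the 3 genotypes has 3 whole-animal libraries, 9 of the 45 libraries of the series, chosen by the genotype labels. The series changed single nucleotides of let-7a outside the seed, and the question asked here is whether the mutant let-7 and the other miRNAs were as abundant in U14A and U16G as in WT. U14A is strain VT3795 with allele let-7(ma433), U16G is strain VT3826 with allele let-7(ma449), and WT is strain VT1367. Each mutant name gives the wild-type base, its position from the 5′ end of the miRNA and the new base. All 3 strains carry maIs105 on chromosome V, a reporter of the adult cuticle gene col-19 in common use in the field. The genotype labels of U14A and U16G add mnDp1(umnIs25) (X;V), +/+, and WT carries no such label. Both mutants thus differ from WT in that label as well as in let-7, and in comparisons with WT the 2 cannot be told apart. The duplication mnDp1 holds X chromosome material on chromosome V and is used to keep strains with harmful let-7 alleles, and the labels do not say whether the harvested animals carried it. Animals were mid L4 larvae, fed E. coli HB101 at 20 °C and collected 45 hours after feeding. Each genotype is 1 strain, and the labels do not say what sets replicates A, B and C apart. The p-values therefore measure the spread between these libraries, which may be technical.

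let-7 is a miRNA that accumulates late in larval life and directs skin and other somatic cells from larval to adult fates. Animals that lack it repeat larval seam cell divisions and burst through the vulva. It acts through short matches to the messages of genes such as lin-41, paired first with the seed at its 5′ side and then with bases further 3′. The bases changed in U14A and U16G both lie in that 3′ part. In the WBcel235 annotation mature let-7 lies on the minus strand of chromosome X at 14744234 to 14744255, inside a precursor at 14744173 to 14744271. Position 14 is base 14744242 and position 16 is base 14744240.

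The 6 mutant libraries held between 1821613 and 2530992 miRNA counts, and the 3 WT libraries between 1319030 and 2158302. Between 59.5% and 61.2% of all reads mapped in the mutants and between 60.3% and 61.7% in WT. Libraries of 1 genotype correlated with each other at 0.985 to 0.994 on the log2 scale, and mutant libraries with WT libraries at 0.984 to 0.995. U9G replicate B, a library of another mutant, stood apart, with a correlation of 0.859 with the median library where all others had at least 0.979. It enters the shared estimate of the spread in the 45-library fit, and counts without it are given beside the main ones. In bulk RNA of whole animals, fewer cells of a type and less RNA per cell cannot be told apart.

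Both mutants made their own let-7 form at a level that was not distinguishable from that of let-7 in WT. Levels are reads of the encoded form per 1000000 miRNA counts (RPM). U14A had 20317, 22833 and 26884 RPM, with a mean of 23344 ± 3313 (SD, n = 3). U16G had 25043, 25636 and 27710 RPM, with a mean of 26130 ± 1401 (SD, n = 3). WT had 32794, 21518 and 26661 RPM, with a mean of 26991 ± 5645 (SD, n = 3). Every library of U14A and U16G fell inside the range of WT except U14A replicate A, which lay below it. The WT libraries also had the widest spread of the 3 groups.

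The fitted log2 difference in let-7 was -0.29 in U14A against WT, with a standard error of 0.25 and a 95% interval of -0.79 to 0.21 (edgeR's quasi-likelihood test, adjusted p = 0.991). In U16G against WT it was -0.13, with a standard error of 0.25 and an interval of -0.63 to 0.37 (edgeR, adjusted p = 0.999). The mean of both mutants differed from WT by -0.21, with an interval of -0.64 to 0.22 (edgeR, adjusted p = 0.98). U14A differed from U16G by -0.16, with an interval of -0.66 to 0.34 (edgeR, adjusted p = 0.991). Exact two-sided permutation tests of log2 RPM gave p = 0.5 for U14A and p = 0.9 for U16G against WT, where 3 against 3 libraries cannot go below 0.1. The same exact test of all 6 mutant libraries against WT gave p = 0.476, where the smallest possible p is 0.0238. The sign of 2 of these differences rested on WT replicate A: without it, U16G differed from WT by 0.09 and the mean of both mutants by 0.01. These intervals leave room for a loss of up to 0.79 on the log2 scale in U14A and 0.63 in U16G.

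The miRNA table has a let-7 row of its own, which in these 9 libraries counts more reads than the forms table does. That row was 1.16 to 1.23 times the sum of both forms in the 6 mutant libraries and 1.28 to 1.41 times in the 3 WT libraries. With it in place of the encoded form, the log2 difference from WT was -0.45 in U14A (edgeR, adjusted p = 0.987) and -0.25 in U16G (edgeR, adjusted p = 0.996).

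Wild-type let-7 was nearly absent from both mutants, although both strains carry the mnDp1 label. In U14A, 32 of 37041, 39 of 57829 and 63 of 57066 let-7 reads were of the wild-type form. These are 0.0864%, 0.0674% and 0.110% of let-7 reads, with Wilson 95% intervals of 0.0612% to 0.122%, 0.0493% to 0.0922% and 0.0863% to 0.141%. In U16G, 26 of 55869, 30 of 62845 and 23 of 53390 let-7 reads were of the wild-type form. These are 0.0465%, 0.0477% and 0.0431%, and the intervals ran from 0.0287% to 0.0682%. Every U14A library had a higher share than every U16G library, with means of 0.0881% ± 0.0215 in U14A and 0.0458% ± 0.00242 in U16G (SD, n = 3 each). An exact two-sided permutation test of that difference gave p = 0.1, the smallest that 3 against 3 libraries allow. WT libraries held 0 reads in the mutant form, and which mutant form was looked for there is not given in the sources used here. For 35166 to 70780 let-7 reads, a count of 0 allows a share of at most 0.00424% to 0.00853%. These intervals and limits cover counting error only.

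**Figure D1:**
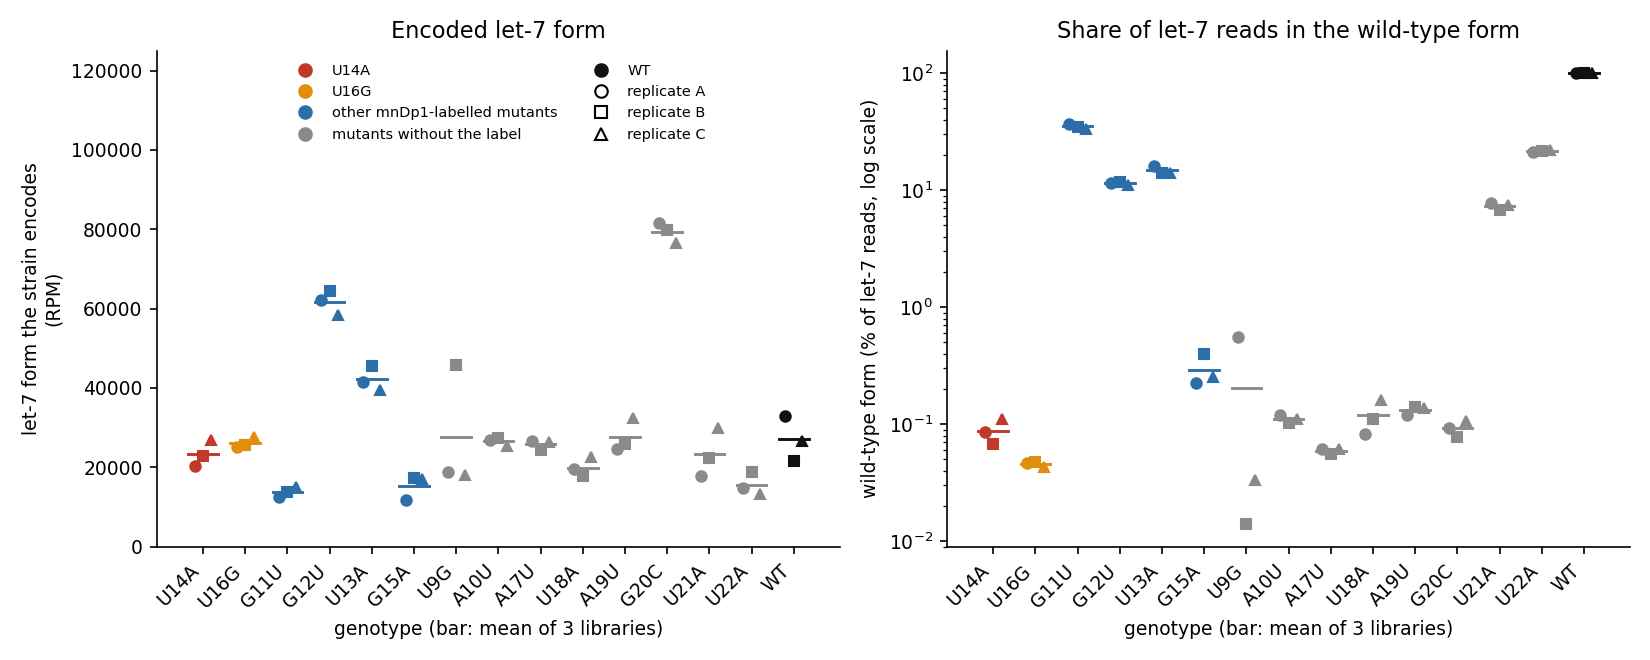
Left, the let-7 form each strain encodes, in RPM, and right, wild-type reads as a percent of the strain's let-7 reads on a log scale, for the 3 libraries (points, shaped by replicate) and their mean (bar) of each genotype. U14A and U16G overlap WT on the left, and on the right they sit under 0.2%, far below G11U, G12U and U13A, which carry the same label.

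Of the 4 other mutants labelled mnDp1, 3 had far more wild-type let-7. The share was 35.2% ± 1.74 in G11U, 11.5% ± 0.352 in G12U and 14.8% ± 1.25 in U13A, and 0.293% ± 0.092 in G15A (SD, n = 3 each). The mean over strains was 0.0669% for U14A and U16G and 15.4% for these 4 strains. The exact permutation test over strain means gave p = 0.133, the smallest possible with 2 against 4 strains. Against the 8 mutants without the label, whose mean was 3.72%, the exact test gave p = 0.0889, with 0.0444 as the smallest possible. In 6 of those 8 the mean share lay between 0.0593% and 0.203%, near U14A and U16G. The other two, U21A at 7.31% and U22A at 21.8%, are changed at the 3′ end.

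The miRNAs encoded around let-7 lay on both sides of WT in U14A and U16G, and no difference was detected. Of the genes within 1000000 bases of let-7, 7 besides let-7 were tested. They are mir-793, a let-7 family gene, mir-47, mir-8196.2, mir-4812 and the copies mir-1829.1, mir-1829.2 and mir-1829.3, among which the counting could split shared reads. Their median log2 difference from WT was 0.04 in U14A, with 4 of 7 higher, and 0.06 in U16G, again with 4 of 7 higher, beside medians of -0.02 and -0.01 over all other miRNAs tested. No member passed the threshold in either mutant, where 0% of all 129 miRNAs did. mir-4812 differed most in U16G, with 12.2, 9.49 and 6.76 CPM in U14A and 14.1, 15.6 and 19.5 CPM in U16G, against 6.44, 15.3 and 7.08 CPM in WT, and its U16G libraries overlap WT. The medians were 0.54 in G11U, 0.54 in G12U and 0.55 in U13A, with 7 of 7 higher than WT in each, and -0.29 in G15A. The order of the 6 labelled strains by this median thus sets the 3 strains with over 10% wild-type let-7 apart from U14A, U16G and G15A.

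**Figure D2:**
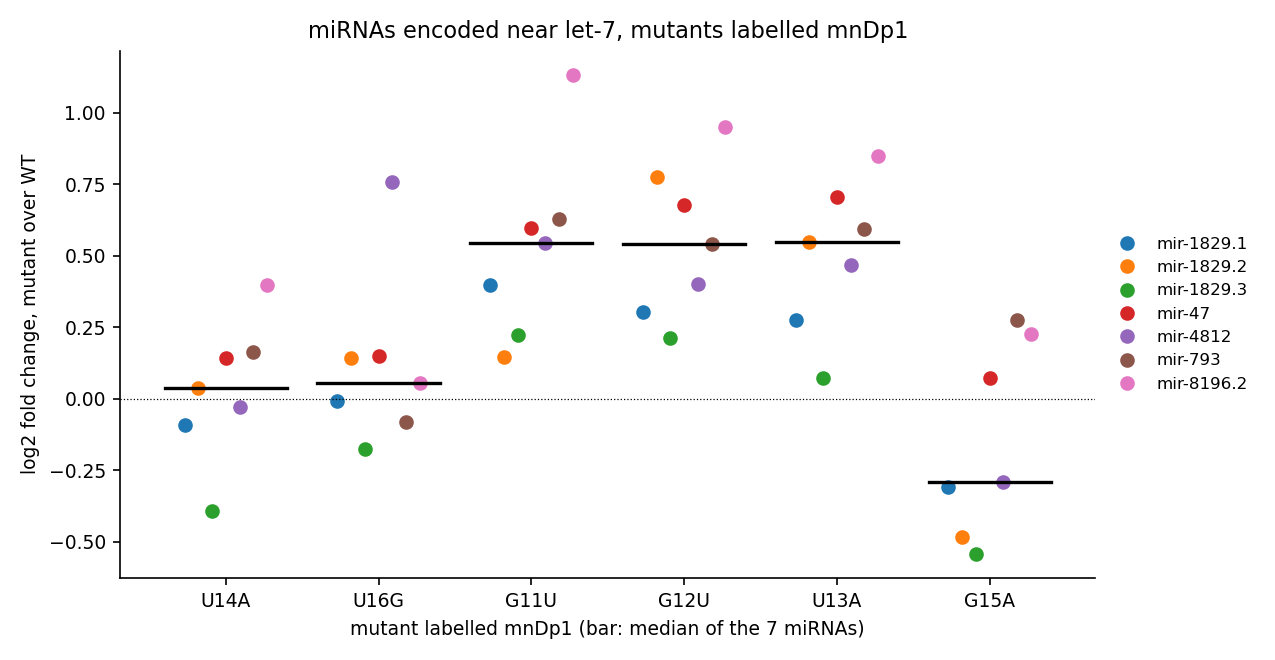
Log2 fold change against WT of the 7 tested miRNAs within 1000000 bases of let-7 (points, coloured by miRNA) and their median (bar) in the 6 mutants labelled mnDp1. In U14A and U16G the points lie on both sides of 0 with medians of 0.04 and 0.06, and in G11U, G12U and U13A all 7 lie above 0.

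The gene among them with the largest difference between the mean of U14A and U16G and the mean of the 4 other labelled strains was mir-8196.2, at 14324355 to 14324517 on the minus strand of chromosome X. It had 17.5, 21.4 and 25.7 normalised CPM (counts per 1000000 after TMM scaling) in U14A and 16.3, 14.8 and 19.9 in U16G. WT had 16.9, 16.4 and 15.7 CPM. All 3 U14A libraries lay above WT and the U16G libraries lay around it. Means in the other labelled strains were 35.9 CPM in G11U, 31.6 in G12U, 29.5 in U13A and 19.2 in G15A. The mean of U14A and U16G was lower than the mean of these 4 strains by a log2 difference of -0.56, with a standard error of 0.14 (edgeR, adjusted p = 0.0394). The spread between libraries within strains gave that standard error and p, and the spread between strains does not enter them. mir-8196.2 was the 1 miRNA of 129 past the threshold in that comparison (0.775%), while 11 had an unadjusted p under 0.05 (8.53%). The call was lost when any 1 of the 9 libraries was left out (edgeR, adjusted p = 0.0696 to 0.258) and with DESeq2 (adjusted p = 0.083), and the direction was kept. Without G15A among the 4, the difference was -0.75 (edgeR, adjusted p = 0.00151), and against G15A alone it was 0.00189 (edgeR, adjusted p = 0.993). This choice of strains was made after seeing the data. Without U9G replicate B, 3 miRNAs of 133 passed (2.26%). At an unadjusted p under 0.05 there were then 16 (12%). The 3 were mir-793 (-0.45) and mir-8196.2 (-0.54), both lower, and mir-788 (0.68), higher in U14A and U16G. With the replicate letters as blocks and without U9G replicate B, 8 of 133 passed (6.02%).

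Among the 129 other miRNAs tested, none passed the threshold in U14A or in U16G against WT (0% in each, edgeR, adjusted p under 0.05), and 2 in each comparison had an unadjusted p under 0.05 (1.55%). These counts come from the fit whose spread includes U9G replicate B. Without that library 0 of 133 passed in either mutant, and 5 in U14A (3.76%) and 7 in U16G (5.26%) had an unadjusted p under 0.05. In an edgeR fit of only the 9 libraries, without blocks, 0 of 120 passed, and 7 in U14A (5.83%) and 9 in U16G (7.5%) did so. DESeq2 also called 0, with 4 in U14A and 1 in U16G at an unadjusted p under 0.05. Within 1.5-fold of WT lay 119 of the 129 in U14A and 119 in U16G. The median absolute log2 difference was 0.15 in both. The 95% interval of a single miRNA reached 0.74 to each side at the median, and 73 of the 129 intervals in U14A and 77 in U16G lay wholly within 2-fold. For the mean of both mutants against WT, 0 passed (0%), 2 had an unadjusted p under 0.05, and 121 lay within 1.5-fold. DESeq2 called 0 there, with 4 at an unadjusted p under 0.05. In edgeR, leaving out U9G replicate B gave 4 at an unadjusted p under 0.05 (3.01%), and the fit of only the 9 libraries gave 3 (2.5%). Libraries of mutant and WT did not overlap for 13 miRNAs in U14A (10.1%), 18 in U16G (14%) and 3 in the pooled mutants (2.33%). Random order of the libraries gives a share of 0.1 for 3 against 3 and 0.0238 for 6 against 3.

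**Figure D3:**
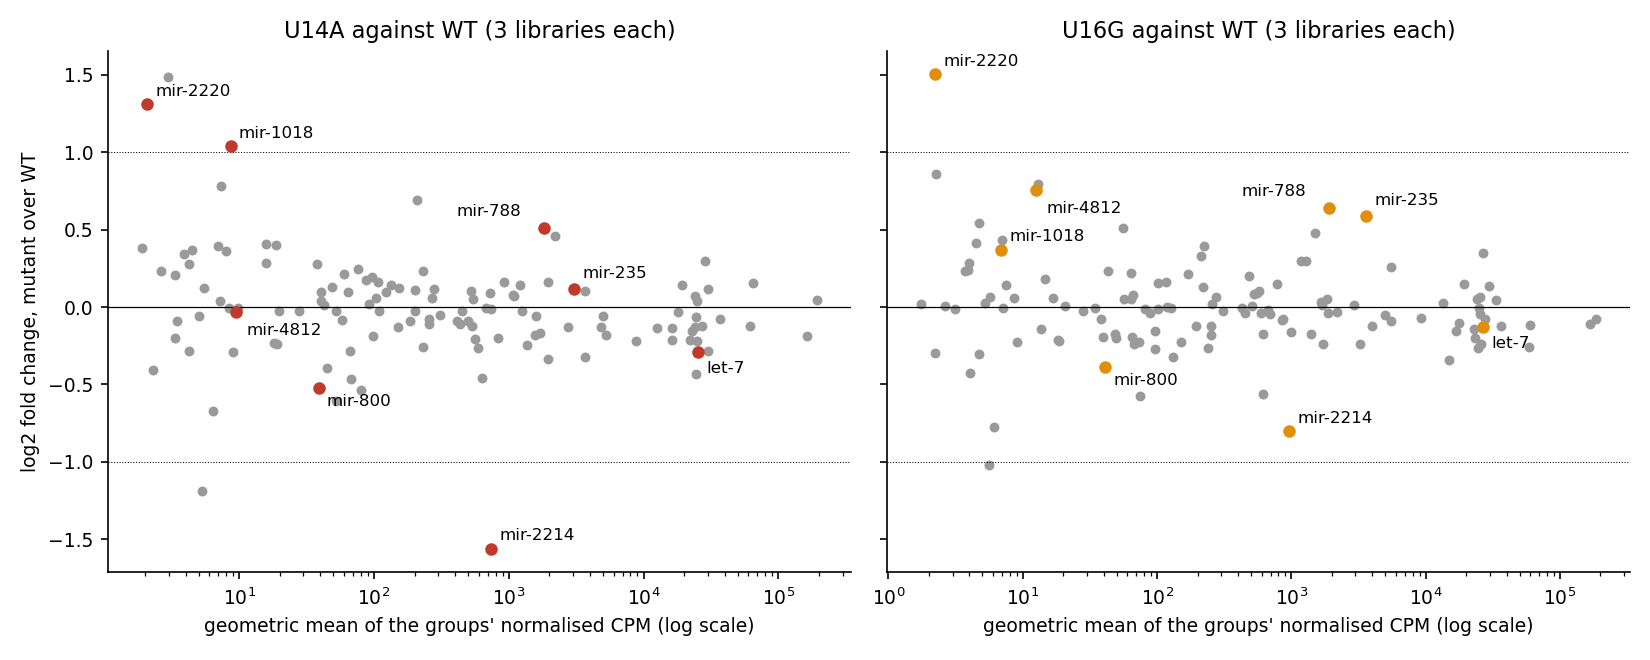
Log2 fold change of each tested miRNA in U14A (left) and U16G (right) against WT, by its mean level in normalised CPM on a log axis, with dotted lines at 2-fold. Coloured points are let-7 and miRNAs described in the text, and mir-8200, at 0 in WT, is not drawn. Most points lie within 1.5-fold of WT, and differences past 2-fold are at low levels except that of mir-2214 in U14A.

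The 3 miRNAs whose 6 mutant libraries all lay on 1 side of WT were mir-788, mir-800 and mir-8200. They are 2.33% of the 129, and random order of 6 against 3 libraries gives a share of 0.0238. For mir-800 the values were 30.8, 30.5 and 36.0 CPM in U14A and 32.2, 37.4 and 37.5 in U16G, against 50.1, 46.3 and 43.3 in WT. The log2 difference of the mean of both mutants was -0.45, with a standard error of 0.21 (edgeR, adjusted p = 0.98). Lower mir-800 was not particular to U14A and U16G. Means were 34.6, 29.2, 28.7 and 32.9 CPM in G11U, G12U, U13A and G15A. The WT mean of 46.6 CPM was the highest of the 15 genotypes. mir-8200 was barely detected, with 4, 3 and 1 counts in U14A and 1, 16 and 1 in U16G, and 0 in each WT library. No fold is given for it. The remaining miRNAs among the 5 smallest p-values of a comparison were mir-1018 (1.04 in U14A against WT), mir-2220 (1.31 in U14A and 1.503 in U16G, and 2.32 and 2.51 without WT replicate A), mir-229 (-0.25 in U14A) and mir-1830 (0.45 in U14A against U16G), none past the threshold. mir-2220 had 3, 11 and 9 counts in U14A and 5, 17 and 5 in U16G, against 5, 1 and 1 in WT. mir-1018 had 11.2, 14.8 and 11.7 CPM in U14A and 4.08, 9.45 and 10.2 CPM in U16G, against 8.43, 6.22 and 3.15 CPM in WT. The U14A libraries lay above WT and the U16G libraries overlap it.

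mir-788, on chromosome X at 8485294 to 8485371, 6258863 bases from let-7, was higher than in WT in each letter in both mutants. It had 2147, 1852 and 2522 CPM in U14A and 2262, 2265 and 2603 CPM in U16G. WT had 1113, 1621 and 1850 CPM. The lowest mutant library and the highest WT library were almost level. Against WT the log2 difference was 0.51 in U14A (edgeR, adjusted p = 0.991), 0.64 in U16G with a standard error of 0.34 (edgeR, adjusted p = 0.999), and 0.57 for both with a standard error of 0.30 (edgeR, adjusted p = 0.98).

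Across the 15 genotypes U16G had the highest mean of mir-788 at 2377 CPM, followed by U9G at 2219, U14A at 2174, G15A at 1942 and A10U at 1914. The U9G mean rested on replicate B, since its other libraries had 1189 and 1636 CPM. At the low end were U21A at 890, A17U at 899 and G20C at 1022. The mean of U14A and U16G was above that of the 8 mutants without the mnDp1 label by a log2 difference of 0.82, with a standard error of 0.18 (edgeR, adjusted p = 0.00915). That standard error and p rest on the spread between libraries within strains. The spread between strains does not enter them, so they do not test a difference between label groups. mir-788 was the 1 miRNA of 129 past the threshold there (0.775%), and 6 had an unadjusted p under 0.05 (4.65%), or 8 without U9G replicate B (6.02%). The call held with any 1 of the 9 libraries left out (edgeR, adjusted p = 0.00538 to 0.0355), with any 1 of the 8 strains left out (0.00177 to 0.0405) and without U9G replicate B (0.92, adjusted p = 0.000123). Against single unlabelled strains it passed for A17U (1.34) and U21A (1.35) (edgeR, adjusted p = 0.0219 and 0.0192). It did not pass for the other 6, at 0.03 against U9G, 0.25 against A10U, 0.53 against U18A, 0.77 against A19U and 1.15 against each of G20C and U22A (edgeR, adjusted p = 0.0518 to 0.996). Against the 4 other labelled mutants the difference was 0.65 (edgeR, adjusted p = 0.207). Against G15A, the labelled strain nearest to them in wild-type let-7, it was 0.23 (edgeR, adjusted p = 0.981).

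**Figure D4:**
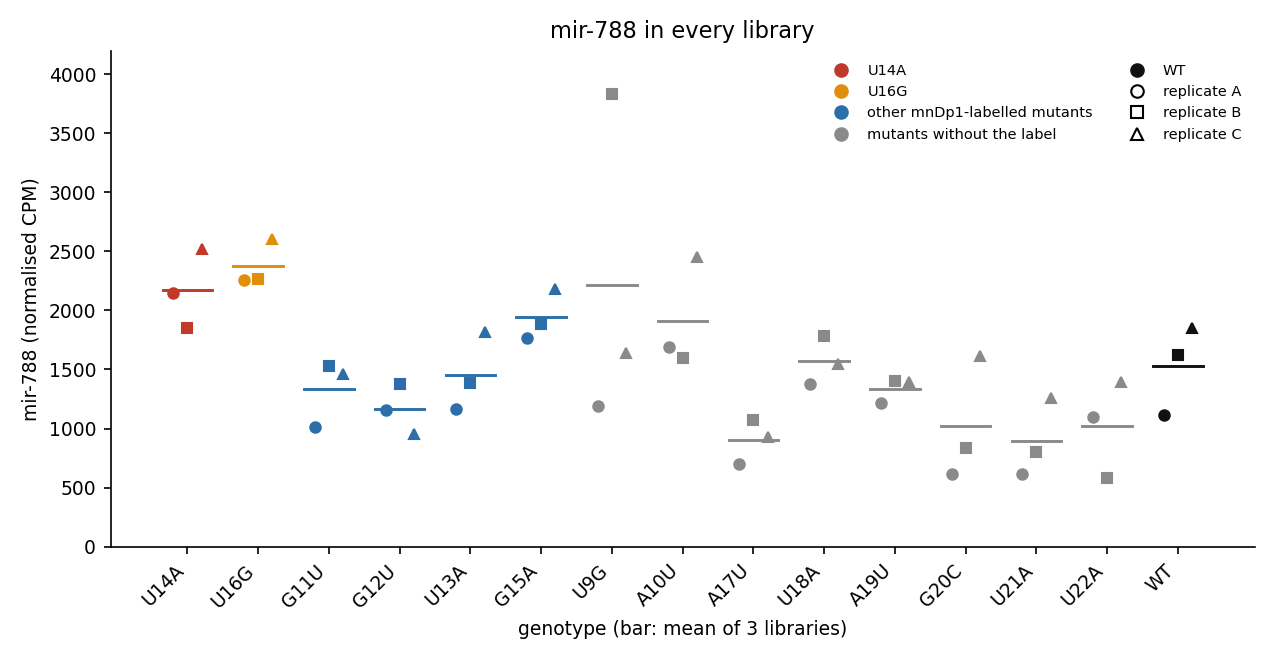
Normalised CPM of mir-788 in every library (points, shaped by replicate) with the mean of 3 libraries (bar), by genotype. The 6 libraries of U14A and U16G sit between 1852 and 2603 CPM, and the 3 WT libraries between 1113 and 1850 CPM.

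Libraries with the same letter deviated from their group means together, so the letters were also used as blocks in a fit of only these 9 libraries, a choice made after seeing the data. Letters as blocks in the fit of all 45 libraries gave 0 calls in every comparison among U14A, U16G and WT. In the 9-library fit, in which 120 other miRNAs were tested with 4 residual degrees of freedom, let-7 again passed in none of these comparisons. Past the threshold were 2 miRNAs in U14A against WT (1.67%), 3 in U16G against WT (2.5%) and 4 for the mean of both (3.33%). In that fit mir-788 was higher than WT in U14A by 0.56 with a standard error of 0.13 (edgeR, adjusted p = 0.0224). In U16G it was higher by 0.67 with a standard error of 0.13 (edgeR, adjusted p = 0.00338). It was the 1 miRNA past the threshold in both mutants. Both comparisons use the same WT libraries, so they are not independent of each other. By normalised CPM the mir-788 difference within letter A was 0.95 in U14A and 1.02 in U16G. Within letter B it was 0.19 and 0.48, and within letter C 0.45 and 0.49. Without the letter A libraries the U14A difference in mir-788 was 0.32 (edgeR, adjusted p = 0.303) and without letter C it was 0.60 (adjusted p = 0.19). For U16G it was 0.75 without letter C (edgeR, adjusted p = 0.0866). The number of calls was 4, 6 and 6 in U14A, U16G and both without letter A, and 5, 4 and 2 without letter B. Of the original calls, 1 of 2, 2 of 3 and 3 of 4 were among those without letter A, and 2 of 2, 3 of 3 and 2 of 4 among those without letter B. mir-240 in U16G and mir-235 for both were among those lost without letter A, and mir-235 and mir-355 for both were lost without letter B. With letter C left out no miRNA passed in any of the 4 comparisons.

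Besides mir-788, these calls were mir-2214, mir-235, mir-240 and mir-355. mir-2214 was lower in U14A than in WT by -1.502 (edgeR with letter blocks, adjusted p = 0.000202). Its values were 98.8, 508 and 681 CPM in U14A and 380, 738 and 1064 CPM in U16G, against 464, 754 and 2588 CPM in WT. The groups overlap, and in each of them the letter A library was lowest and the letter C library highest. In the fit of all 45 libraries its difference in U14A was -1.56, and without WT replicate C it was -0.49. mir-235, a relative of vertebrate miR-92 that holds blast cells quiescent in starved larvae, was higher in U16G than in WT by 0.58 with a standard error of 0.11 (edgeR with letter blocks, adjusted p = 0.00338). It had 6030, 3286 and 3929 CPM in U16G, against 3397, 2360 and 3039 CPM in WT, while U14A had 3594, 2685 and 3266 CPM. The U16G and WT libraries overlap, and within each letter U16G was higher. Higher mir-235 was not particular to U16G, whose mean was 4415 CPM. Means were 5446 CPM in A17U, 5283 in U22A, 4969 in G20C, 4809 in U21A and 4502 in G12U. U9G at 2823 CPM was the only mutant with a mean below that of WT at 2932 CPM. mir-240 was higher in U16G by 0.49 (edgeR with letter blocks, adjusted p = 0.03). It had 2106, 1538 and 1680 CPM in U16G, against 1317, 1365 and 1133 CPM in WT. The 3 U16G libraries all lay above the 3 WT libraries. For the mean of both mutants, mir-355 was lower by -0.47 (edgeR with letter blocks, adjusted p = 0.0491). It had 682, 470 and 473 CPM in U14A and 455, 541 and 519 CPM in U16G, against 864, 780 and 592 CPM in WT. U14A replicate A was the only mutant library inside the WT range.

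U14A and U16G were also compared with each other, a comparison in which the mnDp1 label is shared. In the fit of all libraries 0 of 129 passed (0%), 6 had an unadjusted p under 0.05 (4.65%), DESeq2 called 0 with 5 at an unadjusted p under 0.05, and the libraries did not overlap for 25 miRNAs (19.4%). Random order of 3 against 3 libraries gives a share of 0.1. Without U9G replicate B 10 had an unadjusted p under 0.05 (7.52%), as did 10 in the fit of only the 9 libraries without blocks (8.33%), and 0 passed in either. In the 9-library fit with letters as blocks 13 of 120 passed (10.8%), 6 higher (5%) and 7 lower (5.83%) in U14A, and each had the same sign in all 3 letters. The fit that chose them favours differences shared by the letters of these same libraries, so the shared sign is no separate support. The number of calls was 10 without letter A, 7 without letter B and 0 without letter C, and 6 of the 13 were among the calls without A and 6 among those without B. Those kept without A were mir-55, mir-56, mir-240, mir-789.1, mir-799 and mir-2214. Those kept without B were mir-44, mir-55, mir-56, mir-235, mir-240 and mir-2214. mir-230, mir-241, mir-246, mir-248 and mir-2208.1 were kept in neither.

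**Figure D5:**
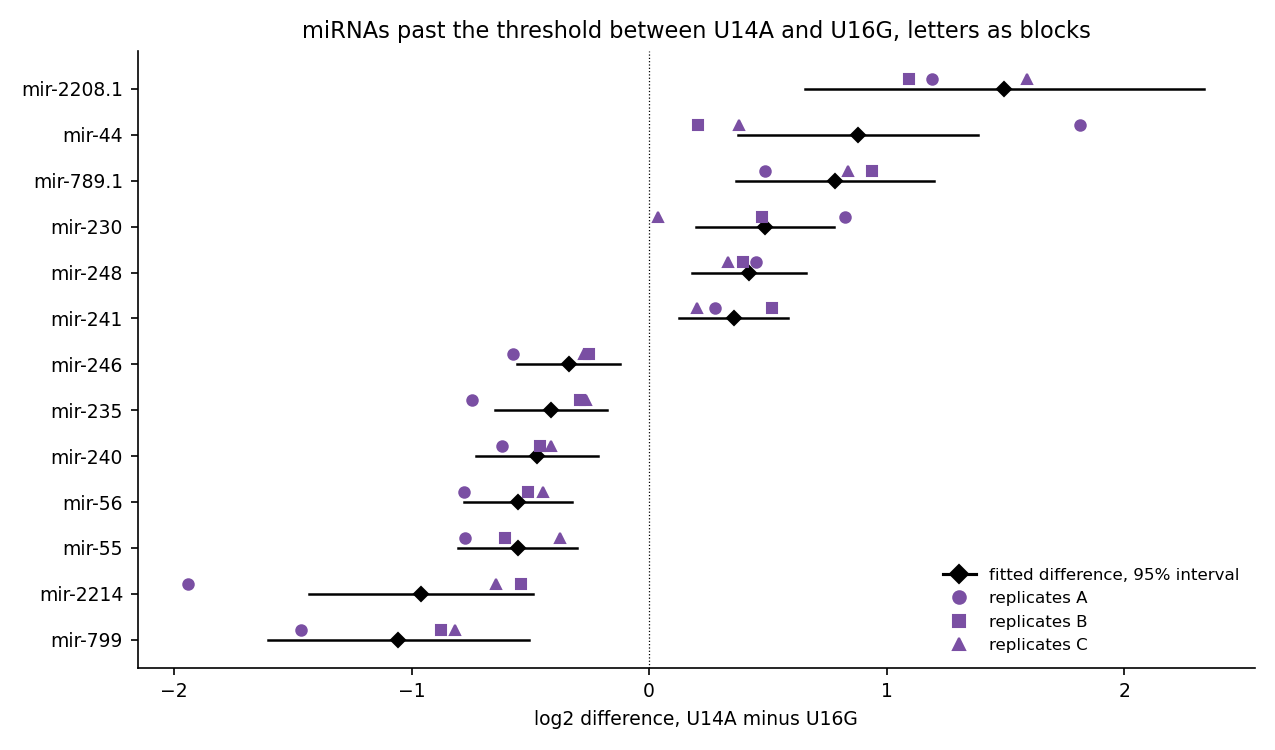
The 13 miRNAs past the threshold between U14A and U16G in the 9-library fit with letters as blocks. Black diamonds and lines give the fitted log2 difference (U14A minus U16G) and its 95% interval, and purple points give the difference within each letter, which has 1 sign in all 3 letters for every miRNA shown. The miRNAs were chosen by that fit of the same libraries, so the shared sign is no separate support.

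The most abundant of the 13 were mir-55 and mir-56, adjacent genes of the mir-51 family, which is related to vertebrate miR-100. They lie at 13144827 to 13144924 and 13144691 to 13144787 on chromosome X. mir-55 had 16018, 21793 and 25117 CPM in U14A and 27443, 33187 and 32583 CPM in U16G, and WT had 30431, 26302 and 28232 CPM. mir-56 had 15530, 22396 and 23280 CPM in U14A and 26635, 31910 and 31726 CPM in U16G, and WT had 20263, 28201 and 22529 CPM. Both were thus lower in every U14A library than in every U16G library. The paired log2 differences were -0.55 for mir-55 (edgeR with letter blocks, adjusted p = 0.00897) and -0.55 for mir-56 (adjusted p = 0.00591). mir-54, the third gene at that site, differed by -0.12 (edgeR with letter blocks, adjusted p = 0.558).

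mir-235, mir-240 and mir-246 were lower in U14A than in U16G as well, by -0.41, -0.47 and -0.34. mir-2214 was lower in U14A than in U16G by -0.96 (edgeR with letter blocks, adjusted p = 0.0147). Its difference was -1.94 within letter A, -0.54 within letter B and -0.64 within letter C. mir-248 was higher, with 2338, 1960.5 and 1922 CPM in U14A and 1710, 1492 and 1525 CPM in U16G. The groups do not overlap for mir-248, and its paired difference was 0.42 (edgeR with letter blocks, adjusted p = 0.0197). mir-230 was higher by 0.49, a difference that was 0.04 within letter C. mir-44 was higher by 0.88, a difference carried by U14A replicate A at 424 CPM, where the other U14A libraries had 168 and 198 CPM and U16G had 120, 145 and 152 CPM. The mature product of mir-44 is the same as that of mir-45, which was listed at 0 in all 9 libraries. How the counting assigned reads of the shared product is not given in the sources used here. The remaining low ones were mir-789.1 (0.78), which has a near-identical copy, mir-2208.1 (1.496), with 9, 12 and 12 counts in U14A and 4, 5 and 3 in U16G, and mir-799 (-1.06), with 13, 19 and 21 counts in U14A and 44, 36 and 35 in U16G.

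The let-7 family, whose members share the seed with let-7 and partly overlap with it in function, was not shown to differ from WT. All 6 other members were tested, and 0 passed the threshold against WT in either mutant, 3 being higher and 3 lower in each. Their log2 differences ran from -0.13 to 0.16 in U14A with a median of 0.00, and from -0.24 to 0.21 in U16G with a median of -0.03. lin-58, the gene name used for mir-48, was the most abundant member. It had 75102, 66951 and 64202 CPM in U14A and 69478, 52510 and 49459 CPM in U16G, against 72761, 62410 and 50345 CPM in WT. mir-84 had 11980, 12147 and 12150 CPM in U14A and 14168, 12839 and 13468 CPM in U16G, against 15445, 12645 and 11712 CPM in WT. lin-58, mir-84 and mir-241 act together in the earlier step from the second to the third larval stage, and their libraries overlapped between each mutant and WT. mir-241 had 4319, 4119 and 2965 CPM in U14A and 3561, 2881 and 2576 CPM in U16G, against 4469, 3615 and 2542 CPM in WT. It was higher in U14A than in U16G by 0.36 in the paired fit (edgeR with letter blocks, adjusted p = 0.0367), and lin-58, its neighbour on chromosome V, by 0.31 (adjusted p = 0.0856). mir-794 and mir-795 were lower in U14A than in U16G by -0.32 and -0.29 in that fit (edgeR with letter blocks, adjusted p = 0.196 and 0.162). The mir-241 call was lost whichever letter was left out, and the fit of all 45 libraries did not make it.

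Of the lin-4 family, which acts upstream of let-7 in the same timing pathway, mir-237 was tested. It had 17856, 26215 and 25078 CPM in U14A and 22976, 22394 and 21767 CPM in U16G, against 27809, 25307 and 27484 CPM in WT. The log2 difference was -0.22 in U14A and -0.26 in U16G (edgeR, adjusted p = 0.991 and 0.999), and the 3 U16G libraries all lay below the 3 WT libraries. Every library listed lin-4 at 0, as it did mir-1 of muscle, mir-124 of sensory neurons, mir-80 and mir-42, so no statement is made on them.

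Among the miRNAs with counts, mir-70 was the most abundant and mir-58.1 the next in U14A, U16G and WT. Of the 257 genes counted, 61 were at 0 in all libraries and could not enter this ranking. mir-71 and mir-52 were listed at 0 in all 9 libraries here, as lin-4 was. Ranks and shares below hold only for the miRNAs that the deposited counts list with reads. The 10 miRNAs most abundant in WT, let-7 included, held 63.6% to 65.9% of normalised counts in the mutants and 63.7% to 66.6% in WT. let-7 itself ranked 13 in U14A, 11 in U16G and 10 in WT. None of the other 9 passed the threshold against WT in either mutant.

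Markers of other cells gave no call either. The mir-35 to mir-41 genes, which are made in oocytes and embryos, summed to between 10421 and 11740 CPM in U14A and between 11609 and 12757 CPM in U16G, against 12521 to 13350 CPM in WT. The range of U14A lay wholly below that of WT, and 6 of the 7 genes tested were lower in U14A and 5 of 7 in U16G, with medians of -0.21 and -0.05 and 0 past the threshold. Of all 129 miRNAs tested besides let-7, 71 were lower in each mutant, with medians of -0.02 and -0.01, and 0 passed. The part of the mir-35 genes' cells in the other differences was not tested. lsy-6, made in the left ASE neuron, had 31.8 to 47.8 CPM in U14A and 31.3 to 43.3 CPM in U16G, against 27.8 to 47.5 CPM in WT. mir-228, a miRNA of glia, had 29607 to 32686 CPM in U14A and 26748 to 27794 CPM in U16G, against 26853 to 31752 CPM in WT. mir-57, a miRNA of posterior cells, had 20823 to 31342 CPM in U14A and 22718 to 29090 CPM in U16G, against 15036 to 31041 CPM in WT. The somatic mir-58.1, mir-81 and mir-82 summed to 236533 to 255017 CPM in U14A and 234951 to 249078 CPM in U16G, against 237497 to 289284 CPM in WT. All of these ranges except that of the mir-35 genes in U14A overlapped WT.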

How the data were processed

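The authors deposited read counts for each miRNA gene and, in a second file, read counts per library that split let-7 by form. That file also holds RPM, read as a score that the authors made from those counts, per the file headers, and not used. Per the submitters' processing notes, cutadapt 1.9, Bowtie2 2.3.4.3, Subread 1.6.2 and featureCounts were used. The library kit was NEBNext small RNA, per the labels. The genome build, the strand setting and the rule for let-7 forms are not given in the sources used here. Coordinates are those of WBcel235 (Ensembl release 115), matched by gene ID for 257 of 257 genes.

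RPM and CPM were computed here from the counts. RPM divides the encoded let-7 form by the deposited miRNA totals, which keep the let-7 row. CPM and the fits use the encoded let-7 form in place of that row. All 45 libraries entered 1 edgeR 4.0.16 quasi-likelihood fit in R 4.3.3 (TMM, filterByExpr, 1 coefficient per genotype), with Benjamini-Hochberg adjustment within each comparison and a threshold of 0.05. DESeq2 1.42.0 was an alternative. Functions were tested on simulated data. Same-letter libraries deviated together in 9 of 9 pairs (correlations of 0.315 to 0.644, median 0.535), and the letters were therefore tried as blocks. The 9 pairs reuse the same libraries. Each correlated most with its own letter, but deviations from a group mean cancel out across its letters. That ranking is thus no separate support for pairing. No libraries agreed within sampling noise. Named miRNAs are let-7, its family, the lin-4 family, tested genes within 1000000 bases of let-7, the 10 most abundant in WT, the mir-35 genes, tissue markers, those past the threshold and the 5 with the smallest p per comparison. Members of the 9-library calls, mir-54 and mir-45 were named after their values were seen. Members and lists were chosen with earlier results of these data known.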

Additional observations from a re-analysis of the deposited data

Results flagged for a closer look

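mir-8196.2 was lower in the mean of U14A and U16G than in the mean of the 4 other mutants labelled mnDp1, by a log2 difference of -0.56, and the edgeR test of that difference passed the threshold. mir-788 was higher in the mean of U14A and U16G than in the mean of the 8 mutants without the label, by a log2 difference of 0.82, again past the threshold in edgeR. Both tests use the spread between libraries within strains, and the spread between strains does not enter them. In mir-1018, U16G replicate A at 4.08 CPM lay far below the other 5 libraries of U14A and U16G. Of 26 such groups of 6 libraries examined this was the 1 case, and chance alone gives about 1 in 20.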

How the results depend on the processing

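Against WT and between U14A and U16G, 0 calls remained the count under each alternative run except letter blocks in the 9-library fit, which gave 2 for U14A, 3 for U16G, 4 for both and 13 between them. That fit rests on 4 residual degrees of freedom. Leaving out single libraries moved the let-7 log2 difference from WT between -0.45 and -0.07 in U14A, -0.29 and 0.0898 in U16G and -0.37 and 0.0103 for both, and between -0.26 and -0.07 between the mutants. Against the 4 labelled mutants the count was 0 with size factors of DESeq2, without the filter, with DESeq2, with totals that omit let-7 and without any single library (0 to 0), 3 without U9G replicate B and 8 with the replicate block and without it. Against the 8 unlabelled mutants it was 2 with DESeq2. The median of miRNAs near let-7 was 0.00405 in U14A, 0.10 in U16G and 0.16 for both within 500000 bases, and -0.03 in U14A within 2000000 bases. The replicate block in the 45-library fit changed no call. For both mutants against WT the sign turned in mir-84, mir-241 and mir-1829.1 with total counts only (0.0188, 0.00186 and 0.0198) and without the filter (0.0218, 0.00499 and 0.0327), and in mir-84 and mir-1829.1 with at least 10 counts everywhere (0.00295 and 0.00659). Leaving out single libraries moved lin-58 between -0.10 and 0.19, mir-84 between -0.13 and 0.10, mir-241 between -0.25 and 0.17, mir-793 between -0.12 and 0.17 and mir-794 between -0.0113 and 0.18. The cause was not tested. The median interval of 0.74 to each side on the log2 scale is that of the 45-library fit, whose spread includes U9G replicate B.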
